A study of Mus musculus with 23 samples.

Results

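The fatty acid elongases Elovl1 to Elovl7 and the stearoyl-CoA desaturases Scd1, Scd2 and Scd3 were measured on 23 mouse arrays from 3 tissues around the eye, namely the lacrimal gland (LG), harderian gland (HG) and eyelid. The members were chosen by name: every probe whose RefSeq accession belongs to 1 of the 10 symbols was used, which gave 14 probes of 27509 probes with a symbol. All 10 genes were among the 16324 genes that passed the filter on dim probes, Elovl3 through the adult HG alone. Elovl3, Elovl5, Elovl6, Scd1 and Scd3 were far brighter in the adult HG than in any other group. Elovl1 and Scd2 also had their highest mean there but overlapped with eyelid epithelium, and Elovl2, Elovl4 and Elovl7 were low there.

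At embryonic day 16.5 (E16.5), epithelium and mesenchyme had been separated from LG, HG and eyelid, which gave 6 groups of 3 arrays, and the eyelid pieces included the ocular conjunctiva. Whole LG (2 arrays) and whole HG (3 arrays) came from adults of 7 weeks. All mice had the background strain labelled B6/CL, and the labels name no treatment and no altered gene. The labels do not say whether the replicates of a group came from separate animals or from pools. Every p-value is set against the spread between replicate arrays, pooled over the 8 groups, and that spread may be technical.

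Elovl enzymes carry out the condensation step that opens each round of fatty acid lengthening in the endoplasmic reticulum, and further enzymes complete the round. Elovl1, Elovl3, Elovl6 and Elovl7 act mainly on saturated and monounsaturated chains, Elovl2 and Elovl5 on polyunsaturated chains, and Elovl4 makes the very long chains found in skin barrier lipids and in the retina. Scd enzymes place a cis double bond in saturated acyl-CoA, and their products go into triacylglycerols, wax esters and phospholipids. The rodent HG is known for secreting lipid onto the eye surface, the LG for secreting watery tear fluid with protein, and the eyelid carries epidermis and the forming meibomian glands.

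Promoter sequence from RefSeq (build GRCm38.p6, 250 bases before the annotated start, written 5′ to 3′ on the strand of the gene) was matched for 7 of the 10 members, with 9 promoters in all, and Elovl3, Scd1 and Scd2 had no entry. Shown are Elovl5, Elovl6 and Scd3, all 3 far brighter in the adult HG, then Elovl7, which was dimmer there, and Elovl4, which was brightest in eyelid epithelium. Capitals mark matches, on either strand, to CCAAT (the NF-Y box), GGGCGG (the GC box), CACGTG (an E-box) and TATAAA (the TATA box).
Elovl5, chr9:77917115-77917364, + strand: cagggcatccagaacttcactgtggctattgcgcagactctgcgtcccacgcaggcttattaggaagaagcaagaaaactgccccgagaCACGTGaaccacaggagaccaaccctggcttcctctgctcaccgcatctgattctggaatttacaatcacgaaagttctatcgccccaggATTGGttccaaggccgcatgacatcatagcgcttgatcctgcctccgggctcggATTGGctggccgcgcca
Elovl6, chr3:129532136-129532385, + strand: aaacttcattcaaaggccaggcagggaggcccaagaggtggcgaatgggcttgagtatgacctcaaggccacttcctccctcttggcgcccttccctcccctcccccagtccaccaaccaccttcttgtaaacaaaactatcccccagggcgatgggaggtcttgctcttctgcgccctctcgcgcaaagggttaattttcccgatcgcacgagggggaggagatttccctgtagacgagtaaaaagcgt
Scd3, chr19:44203038-44203287, + strand: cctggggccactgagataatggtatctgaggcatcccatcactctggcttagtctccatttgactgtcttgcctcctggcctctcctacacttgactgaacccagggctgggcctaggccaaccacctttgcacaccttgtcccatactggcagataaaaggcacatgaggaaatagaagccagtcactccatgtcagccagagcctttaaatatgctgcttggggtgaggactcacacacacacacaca
Elovl7, chr13:108214154-108214403, + strand: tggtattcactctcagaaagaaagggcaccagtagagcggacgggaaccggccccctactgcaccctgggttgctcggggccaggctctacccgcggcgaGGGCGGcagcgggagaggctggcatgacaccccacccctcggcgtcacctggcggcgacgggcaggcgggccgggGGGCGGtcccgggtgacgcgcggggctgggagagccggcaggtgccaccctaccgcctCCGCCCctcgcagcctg
Elovl4, chr9:83806306-83806555, - strand: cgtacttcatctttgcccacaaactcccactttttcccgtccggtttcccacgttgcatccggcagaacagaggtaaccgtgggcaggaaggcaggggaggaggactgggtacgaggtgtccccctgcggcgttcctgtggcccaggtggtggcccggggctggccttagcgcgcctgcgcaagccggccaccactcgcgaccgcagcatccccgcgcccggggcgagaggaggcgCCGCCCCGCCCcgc

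Within these windows Elovl5 held CACGTG at 161 bases and CCAAT, on the other strand, at 71 and 17 bases before the start. Elovl7 held the GC box at 150, 75 and 17 bases, and Elovl4 held it at 14 and 9 bases, where the matches overlap. None of the 4 motifs was found in the windows of Elovl6 and Scd3. Among the 9 member promoters, 2 held CCAAT, 5 the GC box and 1 CACGTG, and none held TATAAA. Of all promoters of this length in the table, 33.8% held CCAAT, 32.7% GGGCGG, 6.02% CACGTG and 12.4% TATAAA. A match is a description of the letters only.

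Between 42.4% and 64.6% of probes were well above background on each array by the scanner's flag, the lowest share on adult LG replicate 2, and no spot was saturated. Levels are given as log2 intensity minus the array's 75th percentile, so 0 is the level of that percentile, and they compare arrays for 1 probe, not 1 probe with another. Summed levels of marker lists, in multiples of the 75th percentile, mostly followed the labels. The lacrimal acinar and tear list summed to 5967 to 7566 in the adult LG and to at most 35.5 elsewhere. The sebaceous and meibomian list summed to 1593 to 2637 in the adult HG and to at most 612 elsewhere, in eyelid epithelium. The epidermal list summed to 1739 to 2245 in eyelid epithelium. The mesenchyme list summed to 135 to 184 in LG, 165 to 302 in HG and 194 to 281 in eyelid epithelium. In LG, HG and eyelid mesenchyme it summed to 1650 to 2185, 1586 to 2130 and 1731 to 2326. The Schwann and myelin list was higher in LG epithelium (84.5 to 91.9) than in LG mesenchyme (65.6 to 77.1), but not so in HG or eyelid. The eyelid mesenchyme arrays held more of the epithelium list (95.9 to 227) than the LG and HG mesenchyme arrays (9.57 to 26.0). Ddx3y and Eif2s3y, both on the Y chromosome, were well above background on 18 of 18 embryonic and 0 of 5 adult arrays. The X-linked RNA Xist was well above background on 18 of 18 embryonic and 5 of 5 adult arrays. Each embryonic array thus held Y-linked RNA together with Xist, and the adult arrays held Xist without it. Age and the sex makeup of the samples therefore cannot be told apart in comparisons of adult with embryonic groups.

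Elovl6 lengthens palmitoyl-CoA to stearoyl-CoA. In the adult HG it read 8.16, 8.73 and 9.15 on replicates 1, 2 and 3, and in the adult LG 0.04 and -1.08. At E16.5 it read 3.84, 3.79 and 4.41 in LG epithelium, 3.39, 3.83 and 3.77 in LG mesenchyme, 3.62, 3.40 and 3.87 in HG epithelium and 1.93, 2.31 and 2.34 in HG mesenchyme. In the eyelid it read 3.21, 3.55 and 3.50 in epithelium and 2.66, 2.70 and 2.76 in mesenchyme. Every adult HG array lay above, and both adult LG arrays lay below, all embryonic arrays. Below the adult HG came LG epithelium, LG mesenchyme, HG epithelium and eyelid epithelium, each overlapping with the next, and then eyelid mesenchyme, HG mesenchyme and the adult LG, which overlapped with no neighbour.

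Elovl3 makes saturated and monounsaturated very long chains and is known from skin sebaceous glands and brown fat. It read 7.40, 7.04 and 8.23 in the adult HG. On 19 of the other 20 arrays it was not well above background, with values from -7.30 to -4.17. The exception was eyelid mesenchyme replicate 1 at -2.24, where replicates 2 and 3 read -4.77 and -6.51. Elovl3 was thus measured in 1 group as a whole, and the order of the other 7 groups, which lie at background, has no meaning.

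Elovl1 makes saturated very long chains used in ceramides. In the adult HG its brighter probe read 7.38, 9.47 and 10.14, and in eyelid epithelium 7.75, 7.68 and 7.42. The other groups were lower, with 4.88, 4.83 and 4.73 in LG epithelium, 5.46, 5.47 and 5.56 in LG mesenchyme, 4.82, 4.63 and 4.70 in HG epithelium and 5.12, 5.06 and 5.12 in HG mesenchyme. Eyelid mesenchyme read 4.96, 4.31 and 4.63 and the adult LG 4.53 and 4.70. The adult HG and eyelid epithelium overlapped because adult HG replicate 1 lay below the eyelid arrays on this probe. The next group in order, LG mesenchyme, did not overlap with either neighbour, nor did HG mesenchyme, and LG epithelium, HG epithelium, eyelid mesenchyme and the adult LG overlapped at the bottom.

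Elovl7 lengthens saturated chains of intermediate length. It read 3.67, 3.46 and 3.05 in eyelid epithelium, 2.15, 1.84 and 1.93 in LG epithelium and 2.19, 1.71 and 1.84 in HG epithelium. Mesenchyme read 0.09, -0.89 and -0.22 in the eyelid, -1.59, -2.49 and -1.83 in LG and -1.68, -1.87 and -2.27 in HG. The adult LG read 0.58 and 1.35, and the adult HG -2.32, -3.23 and -3.05. Every embryonic epithelial array lay above every other array, and the adult HG had the lowest mean of the 8 groups, overlapping only with LG mesenchyme. LG and HG epithelium overlapped with each other, and every other pair of neighbours from eyelid epithelium down to eyelid mesenchyme and on to HG mesenchyme was separate.

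**Figure D1:**
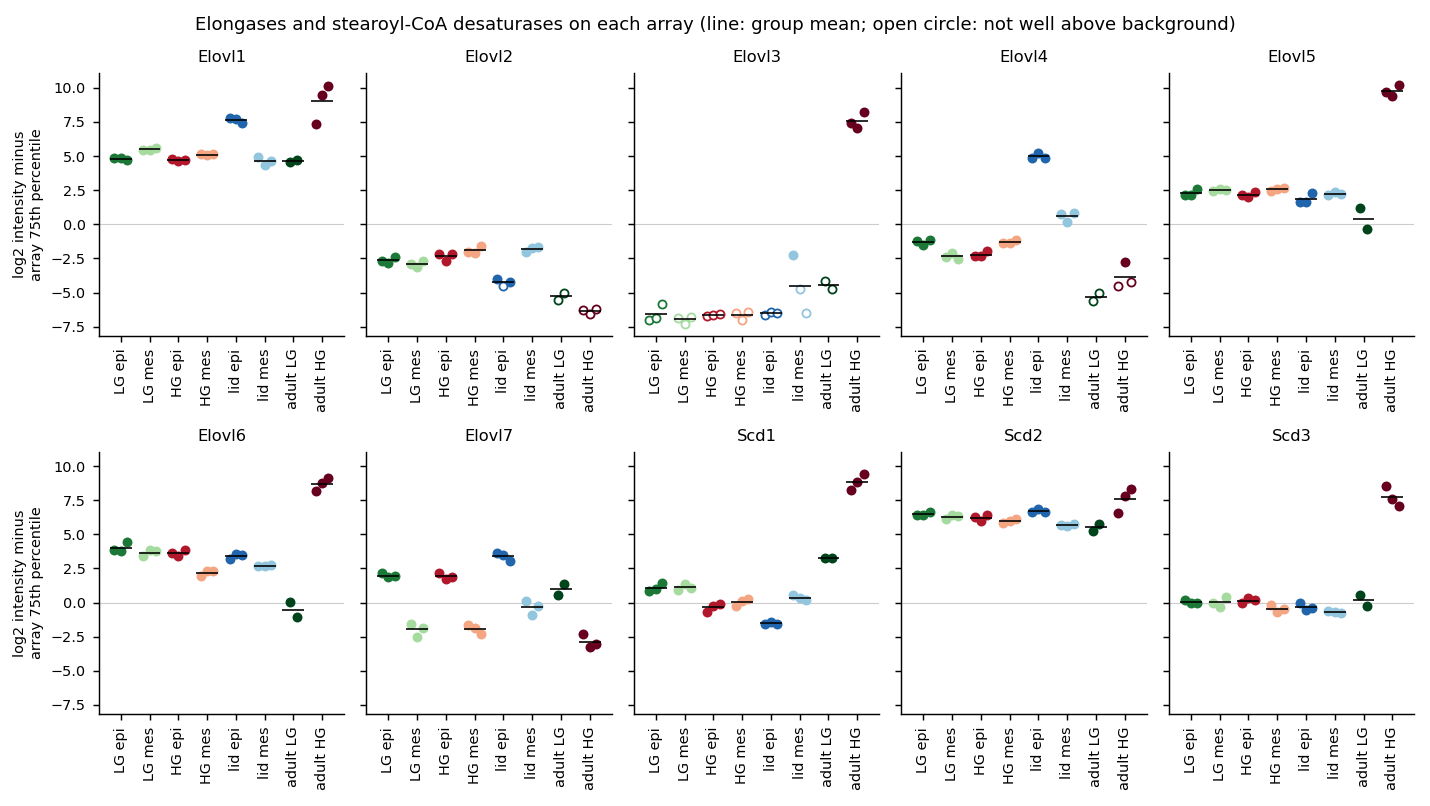
Log2 intensity minus the array's 75th percentile (vertical axis) of the brightest probe of each of the 10 genes in the 8 groups, with 1 point an array, open where the probe was not well above background, and a line at each group mean. The adult HG leads for Elovl1, Elovl3, Elovl5, Elovl6, Scd1, Scd2 and Scd3, eyelid epithelium leads for Elovl4 and Elovl7, and the embryonic mesenchymes of eyelid and HG lead for Elovl2.

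Elovl5 lengthens polyunsaturated chains. It read 9.71, 9.41 and 10.19 in the adult HG and between 1.62 and 2.69 on all 18 embryonic arrays. The embryonic values were 2.16, 2.15 and 2.62 in LG epithelium, 2.47, 2.61 and 2.52 in LG mesenchyme, 2.15, 2.0 and 2.35 in HG epithelium, 2.48, 2.58 and 2.69 in HG mesenchyme, 1.62, 1.63 and 2.27 in eyelid epithelium and 2.13, 2.34 and 2.25 in eyelid mesenchyme. The adult LG read 1.19 and -0.36, a gap of more than the whole embryonic range. All neighbouring embryonic groups overlapped, and the adult HG and the adult LG lay outside them on opposite sides.

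Elovl2 acts on the longest polyunsaturated chains on the route to docosahexaenoic acid. It was dim throughout and ran against most of the family. Eyelid mesenchyme read -2.00, -1.77 and -1.66, HG mesenchyme -2.03, -2.14 and -1.57, HG epithelium -2.17, -2.72 and -2.18, LG epithelium -2.71, -2.85 and -2.38 and LG mesenchyme -2.88, -3.14 and -2.72. Eyelid epithelium read -4.04, -4.50 and -4.24, with replicate 2 not well above background. In the adult HG (-6.26, -6.56 and -6.18) and the adult LG (-5.52 and -5.03) no array was well above background. Eyelid and HG mesenchyme overlapped at the top, HG epithelium, LG epithelium and LG mesenchyme overlapped below them, and eyelid epithelium lay apart below these. The adult LG and the adult HG both lay at background, so their order has no meaning.

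Elovl4, the elongase of very long chains, was brightest in eyelid epithelium at 4.84, 5.23 and 4.87. Eyelid mesenchyme read 0.73, 0.16 and 0.85. In the glands it read -1.20, -1.50 and -1.12 in LG epithelium, -2.41, -2.11 and -2.53 in LG mesenchyme, -2.36, -2.31 and -1.98 in HG epithelium and -1.35, -1.34 and -1.18 in HG mesenchyme. All gland arrays lay below all eyelid arrays, and the higher compartment was the epithelium in LG and the mesenchyme in HG. The adult HG read -4.50, -2.77 and -4.26, with only replicate 2 well above background, and the adult LG read -5.59 and -5.07, with neither above it. Neighbours overlapped only between LG epithelium and HG mesenchyme and between HG epithelium and LG mesenchyme.

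Scd1 is the main stearoyl-CoA desaturase of adult liver, fat and sebaceous glands. In the adult HG it read 8.28, 8.83 and 9.42 and in the adult LG 3.27 and 3.26. At E16.5 it read 0.83, 1.0 and 1.45 in LG epithelium, 0.96, 1.39 and 1.08 in LG mesenchyme, -0.70, -0.28 and -0.08 in HG epithelium and -0.24, 0.12 and 0.26 in HG mesenchyme. The eyelid read -1.60, -1.43 and -1.56 in epithelium and 0.53, 0.30 and 0.17 in mesenchyme. Both adult glands lay above all embryonic arrays, both LG compartments lay above the other embryonic groups, and eyelid epithelium lay below all of them. LG mesenchyme and LG epithelium overlapped with each other, as did eyelid mesenchyme with HG mesenchyme and HG mesenchyme with HG epithelium.

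Scd2, the isoform best known from brain and from embryonic tissues, varied least. The adult HG read 6.58, 7.78 and 8.36 and the adult LG 5.27 and 5.77. The embryonic groups read 6.40, 6.41 and 6.63 in LG epithelium, 6.10, 6.41 and 6.37 in LG mesenchyme, 6.26, 5.98 and 6.39 in HG epithelium, 5.85, 5.99 and 6.13 in HG mesenchyme, 6.62, 6.83 and 6.65 in eyelid epithelium and 5.69, 5.60 and 5.76 in eyelid mesenchyme. Adult HG replicate 1 lay inside the embryonic range and replicates 2 and 3 above it. Every neighbouring pair in the order overlapped except HG mesenchyme with eyelid mesenchyme.

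Scd3 is a mouse isoform known from skin sebaceous glands and the HG. Its brightest probe read 8.53, 7.56 and 7.07 in the adult HG and between -0.76 and 0.55 on the other 20 arrays. Those values were 0.20, -0.03 and -0.05 in LG epithelium, -0.05, -0.32 and 0.41 in LG mesenchyme, -0.06, 0.32 and 0.15 in HG epithelium, -0.16, -0.70 and -0.50 in HG mesenchyme, -0.04, -0.54 and -0.38 in eyelid epithelium, -0.65, -0.71 and -0.76 in eyelid mesenchyme and 0.55 and -0.23 in the adult LG. The groups other than the adult HG overlapped with their neighbours. Scd1, Scd2, Scd3 and Scd4 are similar paralogs next to each other on chromosome 19, so RNA of 1 isoform may bind probes of another, and how far this happened is not known here.

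Adult HG and embryonic HG epithelium differed in all 10 genes (limma's moderated test with Benjamini-Hochberg adjustment over all genes), 7 higher and 3 lower, where 70.0% of all genes tested were called (34.4% higher and 35.6% lower). The median difference of the members was 4.67 on the log2 scale, against 0.06 over all genes. Scd1 was 586-fold higher in the adult gland (log2 difference 9.19, SE 0.24, adjusted p 7.38e-16), Elovl5 194-fold (7.60, SE 0.29, 9.03e-14), Scd3 191-fold (7.58, SE 0.29, 9.68e-14) and Elovl6 33.1-fold (5.05, SE 0.27, 9.23e-12). Elovl1 was 19.5-fold higher and Scd2 2.57-fold (adjusted p 3.81e-08 and 0.000388). Where a probe was below background on every array of the dimmer group, the brighter mean was set against the higher of the dim value and the lowest signal well above background on each array. By this bound Elovl3 was at least 4995-fold higher and Elovl2 at least 3.38-fold lower (adjusted p 5.80e-12) in the adult HG. Elovl3 passed the filter through the adult HG alone, so its place among the 7 higher genes is not independent of the filter. Elovl7 fell 27.5-fold (log2 difference -4.78, SE 0.30, adjusted p 9.01e-11) and Elovl4 had a difference of -1.63 (SE 0.32, 0.000184) with 1 of 3 adult arrays above background.

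These are whole adult glands against separated embryonic epithelium, so tissue makeup differs as well as age, and fewer cells of a type and less RNA per cell cannot be told apart. The sebaceous and meibomian list summed to 1593 to 2637 in the adult HG and 223 to 278 in HG epithelium, and the mesenchyme list to 313 to 646 in the adult HG. The adipocyte list reached 32.3, 10.1 and 6.35 on the 3 adult HG arrays. Their part in the differences was not tested. Within each of the 3 slides, the sign of the difference was the same for the 10 genes, for example 8.98, 9.11 and 9.50 for Scd1 and -4.51, -4.95 and -4.89 for Elovl7. Elovl1 (2.56, 4.85 and 5.44) and Scd2 (0.32, 1.80 and 1.97) differed least on slide 1.

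Adult HG replicate 1, the array of slide 1, stood apart from replicates 2 and 3 for some members. Set against their mean it read -2.42 for Elovl1, -1.49 for Scd2, -0.99 for Elovl4, -0.85 for Scd1 and -0.79 for Elovl6, and 0.82 for Elovl7 and 1.21 for Scd3. For Elovl3, Elovl5 and Elovl2 it read -0.23, -0.09 and 0.11. Over all genes the median was -0.13 with an SD of 0.838, and 15.9% of genes lay beyond 1 in either direction. This array also held more of the muscle list (101 against 8.25 and 1.59) and of the immune list (164 against 48.8 and 26.7), whose part was not tested. Without it the difference from HG epithelium was 5.09 for Elovl1, 1.86 for Scd2, 7.18 for Scd3 and -1.30 for Elovl4, and all 10 calls were still made.

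Adult LG and embryonic LG epithelium differed in 8 of the 10 genes, 2 higher and 6 lower, where 69.8% of all genes were called (31.2% higher and 38.7% lower). The members' median was -0.99, against -0.10 over all genes. Scd1 was 4.52-fold higher in the adult LG (log2 difference 2.17, adjusted p 1.09e-06). Elovl6 was 23.1-fold lower (-4.53, 2.75e-10) and Elovl5 3.72-fold lower (-1.90, 4.68e-05), Elovl4 at least 3.39-fold lower (1.19e-08) and Elovl2 at least 1.31-fold lower (1.15e-08), a call lost with normexp (-0.07, adjusted p 0.732). Elovl7 fell 2.02-fold (0.0130) and Scd2 1.95-fold (0.0133). Elovl3 passed the test (difference 2.10, adjusted p 0.0167, but 0.0562 with median centring and 0.270 with quantile normalization) but was below background on all arrays of both groups, so no fold is given. Elovl1 (-0.20, adjusted p 0.717) and Scd3 (0.12, adjusted p 0.751) did not pass.

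The adipocyte list summed to 10.4 to 27.8 in the adult LG and 1.78 to 2.21 in LG epithelium, the immune list to 34.2 to 75.9 against 4.73 to 9.25, and the lacrimal acinar and tear list to 5967 to 7566 against 4.17 to 6.56. Their part in these differences was not tested.

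With 2 arrays, the adult LG mean is the least certain of the 8. Without adult LG replicate 1, which leaves 1 array assumed to vary like the other groups, 5 members were called in place of 8, and Elovl3, Elovl7 (-0.63, adjusted p 0.199) and Scd2 (-0.71, adjusted p 0.142) were lost. Elovl5 was -2.67 without replicate 1 and -1.12 without replicate 2. Within slides 2 and 3 the difference was 2.27 and 1.81 for Scd1, -3.75 and -5.49 for Elovl6 and -0.96 and -2.98 for Elovl5.

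**Figure D2:**
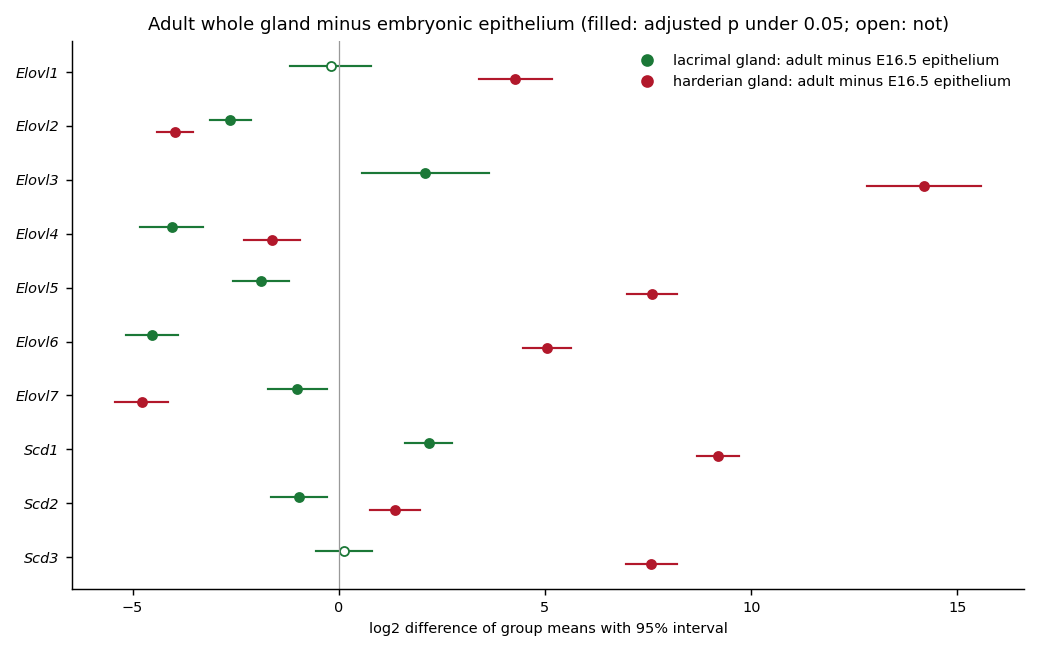
Log2 difference of group means with its 95% interval (horizontal axis) for each of the 10 genes, in adult HG minus embryonic HG epithelium and adult LG minus embryonic LG epithelium, with filled points where the adjusted p was under 0.05. Elovl5 and Elovl6 lie at 7.60 and 5.05 for HG and at -1.90 and -4.53 for LG, Scd1 is positive for both glands, and Elovl7 is negative for both.

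Between the adult glands all 10 genes passed the test, 2 higher and 8 lower in LG than in HG, where 55.6% of all genes were called (22.4% higher and 33.2% lower). The median was -4.98, against -0.13 over all genes. Adult HG exceeded adult LG 655-fold for Elovl5 (log2 difference LG minus HG -9.35, adjusted p 7.72e-14), 587-fold for Elovl6 (-9.20, 4.16e-14), 188-fold for Scd3 (-7.56, 1.25e-12), 47.6-fold for Scd1 (-5.57, 6.66e-12), 20.9-fold for Elovl1 (-4.38, 2.90e-07) and 4.15-fold for Scd2 (-2.05, 3.24e-05). Without adult HG replicate 1 the difference for Elovl1 was -5.19, and without adult LG replicate 1 or 2 that for Elovl5 was -10.13 or -8.58. Elovl3 was at least 1545-fold higher in HG, but it passed the filter through the adult HG alone, so its call is not independent of the filter. Elovl7 went the other way and was 14.2-fold higher in LG (3.83, adjusted p 2.40e-08). Elovl2 (1.06) was below background in both glands and lost the call with median centring (adjusted p 0.125) and quantile normalization (0.987), and Elovl4 (-1.49, adjusted p 0.00179) was above it on 1 of 5 arrays. The second probe of Elovl4 gave 0.25 (adjusted p 0.489), the difference of the first was -0.95 without adult HG replicate 2, and it was 0.39 (adjusted p 0.0804) with another background correction (normexp), so its direction between the adult glands is not settled. Within slides 2 and 3 the difference was -8.22 and -10.55 for Elovl5, -8.69 and -10.23 for Elovl6 and 3.81 and 4.39 for Elovl7.

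The LG-HG difference was also compared between adult glands and embryonic epithelium, as a difference of differences, and all 10 genes passed, 2 positive and 8 negative, where 45.2% of all genes were called (18.1% positive and 27.1% negative). Elovl3 is among the 8 negative genes but passed the filter through the adult HG alone, so its call is not independent of the filter. The median was -5.75, against -0.15 over all genes. It came to -9.58 for Elovl6, -9.50 for Elovl5, -7.46 for Scd3, -7.02 for Scd1 and -4.48 for Elovl1, and to 3.77 for Elovl7. The calls of Elovl2 and Elovl4, both mostly below background in the adult glands, did not hold throughout. Elovl2 (1.35) lost the call with median centring (adjusted p 0.163) and quantile normalization (0.656), and Elovl4 (-2.43) lost it with normexp (-0.17, adjusted p 0.586). Without adult HG replicate 1 the value for Elovl1 was -5.29, and for Elovl5 it was -10.27 or -8.72 without adult LG replicate 1 or 2. In embryonic epithelium itself, LG and HG differed in 1 of the 10 genes, where 6.35% of all genes were called (2.96% higher and 3.39% lower in LG). That gene was Scd1, 2.73-fold higher in LG epithelium (log2 difference 1.45, SE 0.24, adjusted p 0.000619), with 1.53, 1.29 and 1.52 within slides 1, 2 and 3. Elovl4 read 0.94 higher (adjusted p 0.109), and its second probe 1.16 (adjusted p 0.0103).

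Epithelium and mesenchyme were compared at E16.5 in each tissue, and Elovl7 was higher in epithelium in all 3. It was 15.4-fold higher in LG (log2 difference 3.94, SE 0.30, adjusted p 3.21e-09), 14.5-fold in HG (3.85, 6.31e-09) and 13.3-fold in the eyelid (3.73, 1.02e-08). Within slides 1, 2 and 3 the difference was 3.74, 4.33 and 3.76 in LG, 3.87, 3.58 and 4.11 in HG and 3.57, 4.35 and 3.27 in the eyelid. A moderated F test across the 3 tissues gave 0.13 for Elovl7 (adjusted p 0.924).

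In LG, 2 of the 10 genes were called, both higher in epithelium, where 58.6% of all genes were called (32.1% higher and 26.5% lower). Beside Elovl7 this was Elovl4, 2.11-fold higher in epithelium (log2 difference 1.08, adjusted p 0.00763), with 1.25 by the second probe. Elovl1 was not called, but its arrays were lower in LG epithelium (4.73 to 4.88) than in LG mesenchyme (5.46 to 5.56) without overlap. It was called with only the groups compared in the fit (-0.68, adjusted p 0.00149) and with quantile normalization (-1.01, 0.0467). Scd3 was called in LG with the mean over probes (0.95, 0.0251). In HG, 3 were called (2 higher and 1 lower), where 57.9% of all genes were called (29.8% higher and 28.1% lower). Elovl6 was 2.71-fold higher in HG epithelium (1.44, adjusted p 0.000170) and Elovl4 was 1.90-fold lower (-0.92, 0.0193), with -1.28 by the second probe. The Elovl4 call in HG was lost when arrays were centred on their median (-0.87, adjusted p 0.0577) and without HG epithelium replicate 1 (0.0613), HG epithelium replicate 2 (0.0530) or HG mesenchyme replicate 3 (0.0569). With only the groups compared in the fit, HG gained Elovl1 (-0.39, adjusted p 0.0190), Elovl5 (-0.42, 0.0340) and Scd3 (0.59, 0.0277). Elovl2 (-0.45) was gained in HG with slide (adjusted p 0.0071) or replicate number (0.0280) as a block. The mean over probes gained Scd3 in HG (0.86, 0.0406).

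In the eyelid, 8 members were called, 5 higher in epithelium and 3 lower, where 51.2% of all genes were called (25.7% higher and 25.5% lower). Elovl4 was 21.1-fold higher in epithelium (log2 difference 4.40, adjusted p 2.88e-09, and 4.10, 5.06 and 4.02 within slides) and Elovl1 7.91-fold (2.98, 7.83e-06, and 2.79, 3.37 and 2.79 within slides). Scd2 was 2.03-fold higher (1.02, 0.00636) and Elovl6 1.63-fold (0.71, 0.0364). The Scd2 call was lost with median centring (adjusted p 0.0610), and the Elovl6 call with median centring (0.174), with quantile normalization (0.0632) and without any 1 of 5 of the 6 eyelid arrays (0.0641 to 0.104). Elovl2 was 5.46-fold lower in epithelium (-2.45, 1.63e-08) and Scd1 3.64-fold lower (-1.86, 3.16e-06). Elovl3 also passed the test as lower (difference -2.02, adjusted p 0.0151), but the groups overlapped. Only 1 of the 6 eyelid arrays was well above background for Elovl3, so no fold is given. Without eyelid mesenchyme replicate 1 the Elovl3 difference was -0.89 (adjusted p 0.106) and without replicate 3 -3.03. Elovl5 and Scd3 passed the test in none of the 3 tissues by their main probes. The epidermal list summed to 1739 to 2245 in eyelid epithelium and to 34.4 to 128 in eyelid mesenchyme, and its part in these differences was not tested.

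Whether the difference between compartments depended on the tissue was asked with the F test, which called 4 of the 10 genes, where 42.3% of all genes were called. These were Elovl4 (F 70.4, adjusted p 1.48e-07), Elovl2 (46.3, 1.90e-06), Elovl1 (23.7, 8.64e-05) and Scd1 (15.8, 0.000678). Elovl4 had compartment differences of 4.40 in the eyelid, 1.08 in LG and -0.92 in HG. For Elovl6 the F value was 4.20 (adjusted p 0.0705), and with the replicate number as a block it was 5.11 (adjusted p 0.0415). Elovl6 was also called with slide as a block (adjusted p 0.0381), quantile normalization (0.0365) and only the groups compared in the fit (0.00747). Scd2, with an F value of 2.66 (adjusted p 0.175), was called with quantile normalization (0.0397) and with only the groups compared (0.00174).

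**Figure D3:**
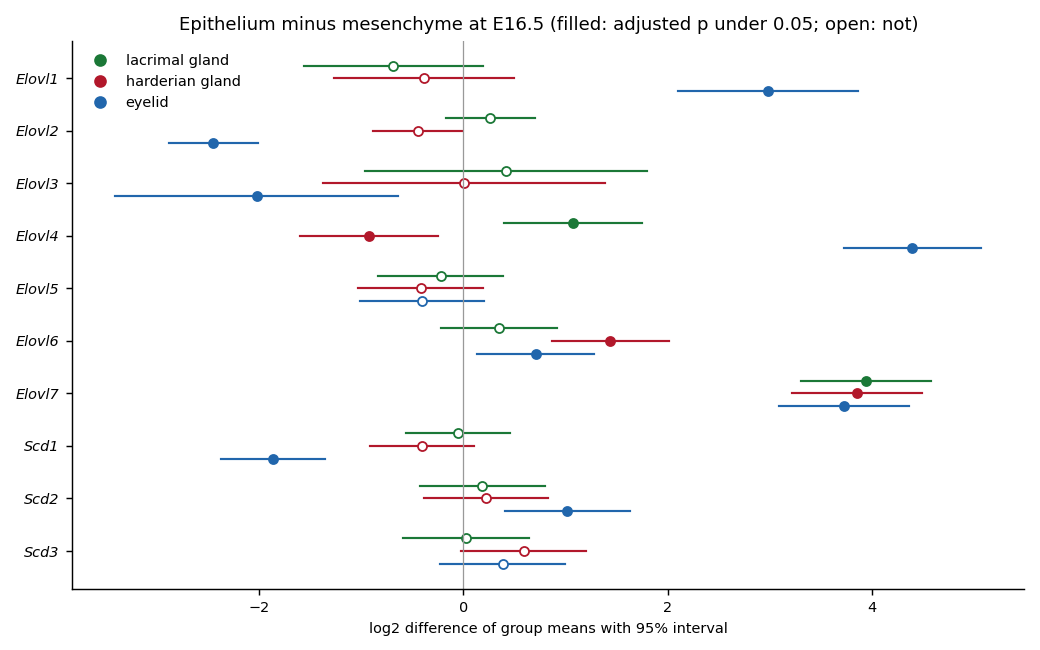
Log2 difference of epithelium minus mesenchyme at E16.5 with its 95% interval (horizontal axis) for each of the 10 genes in LG, HG and eyelid, with filled points where the adjusted p was under 0.05. Elovl7 lies at 3.94, 3.85 and 3.73, while Elovl4 runs from -0.92 in HG to 4.40 in the eyelid and Elovl1, Elovl2 and Scd1 have filled points in the eyelid only.

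Against eyelid epithelium, LG epithelium differed in 5 members and HG epithelium in 5, with 2 higher and 3 lower in each, where 45.5% of all genes were called for LG (27.2% higher and 18.3% lower) and 44.6% for HG (26.6% higher and 18.0% lower). These comparisons share the eyelid arrays. Elovl4 was 76.1-fold lower in LG epithelium and 146-fold lower in HG epithelium (log2 differences -6.25 and -7.19). Elovl1 differed by -2.80 and -2.90, Elovl7 by -1.42 and -1.48, Elovl2 by 1.61 and 1.90 and Scd1 by 2.62 and 1.17.

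LG and HG mesenchyme differed in 4 members, 2 higher and 2 lower in LG, where 14.3% of all genes were called (6.46% higher and 7.85% lower). Elovl6 was 2.78-fold higher in LG mesenchyme (log2 difference 1.47, adjusted p 0.000822) and Scd1 2.14-fold (1.1, 0.00399), while Elovl2 (-1.0, 0.00228) and Elovl4 (-1.06, 0.0332) were lower. With arrays centred on their median the count was 1, with Elovl2 (adjusted p 0.127), Elovl4 (0.0891) and Scd1 (0.0594) lost, and Elovl4 was also lost without any 1 of 5 of the 6 arrays (0.0722 to 0.117). The adipocyte list, of which 9 genes were measured, summed to 35.5 to 43.1 in LG mesenchyme and 20.7 to 28.0 in HG mesenchyme. The pigment cell list summed to 2.96 to 3.34 in LG and 80.3 to 109 in HG mesenchyme, and the neuron list to 50.6 to 58.3 and 18.3 to 30.6. The part of these lists in the 4 differences was not tested.

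Against eyelid mesenchyme, LG mesenchyme differed in 6 members (2 higher and 4 lower) and HG mesenchyme in 3, all lower. Of all genes 31.2% were called for LG (15.5% higher and 15.7% lower) and 22.4% for HG (11.1% higher and 11.3% lower). Elovl4 was lower by log2 differences of -2.93 in LG and -1.87 in HG, and Elovl7 by -1.63 and -1.60. Elovl6 (0.96) and Scd1 (0.81) were higher and Elovl2 (-1.10) lower in LG mesenchyme. These 3 calls were lost with median centring (adjusted p 0.0507, 0.0938 and 0.0599), and that of Scd1 also without LG mesenchyme replicate 2 (0.0773) or eyelid mesenchyme replicate 3 (0.0667). Elovl3 also passed the test in both comparisons, with differences of -2.47 and -2.14. Only 1 of 3 eyelid mesenchyme arrays and no LG or HG mesenchyme array was well above background, so no fold is given. Without eyelid mesenchyme replicate 1 the Elovl3 differences were -1.33 (adjusted p 0.0298) and -1.0 (adjusted p 0.128), and without replicate 3 they were -3.47 and -3.14. The HG call was also lost without any 1 of the 3 HG mesenchyme arrays (adjusted p 0.0513 to 0.0855). The epithelium list was higher in eyelid mesenchyme (95.9 to 227) than in LG mesenchyme (9.86 to 20.2) and HG mesenchyme (9.57 to 26.0). The skeletal muscle list also was, with 74.6 to 168 against 1.18 to 1.44 and 3.65 to 8.80, and the pigment cell list read 68.9 to 79.7 against 2.96 to 3.34 in LG. The part of these lists in the differences from eyelid mesenchyme was not tested.

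Elovl1 and Elovl4 had 2 probes each and Scd3 had 3, and from HG epithelium to adult HG all probes of a gene gave the same direction. There the second Elovl1 probe gave 5.39, and the other Scd3 probes gave 11.68 and 10.85 against 7.58 for the brightest. The second Elovl4 probe gave -1.62, but it was below background on every adult HG array, so that size depends on the scanner's floor. On the second Elovl1 probe adult HG replicate 1 read 4.01, where replicates 2 and 3 read 8.21 and 8.13. The same probe read 4.58, 4.64 and 4.40 in eyelid epithelium, 1.60, 1.45 and 1.41 in eyelid mesenchyme and 1.81 and 1.96 in the adult LG, so on it, too, eyelid epithelium was above all groups but the adult HG. The second Elovl4 probe read 2.73, 2.89 and 2.63 in eyelid epithelium, -0.71, -1.08 and -0.69 in eyelid mesenchyme, -2.57, -2.85 and -2.67 in LG epithelium, -4.15, -3.73 and -3.96 in LG mesenchyme, -3.82, -4.03 and -3.72 in HG epithelium and -2.56, -2.51 and -2.66 in HG mesenchyme. It thus had the same opposite order of compartments in LG and HG as the first probe, and in the adult glands it was below background on all 5 arrays.

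The probes of Scd3 did not give 1 picture of the embryo. In the adult HG the second probe read 8.41, 7.58 and 7.25 and the third 6.03, 5.13 and 5.03, so replicate 1 was the highest on all 3. The brightest read between -0.76 and 0.41 on all 18 embryonic arrays with no call between compartments. The second probe read -4.10, -3.81 and -3.96 in LG epithelium, where LG mesenchyme had 1 of 3 arrays above background at -5.17. It was called higher in epithelium in LG (log2 difference 2.41, adjusted p 0.0052) and in HG (1.78, adjusted p 0.0314, at least 1.69-fold). The third probe had means of -4.11 in LG epithelium and -4.53 in LG mesenchyme, with all arrays of both above background. Its epithelium and mesenchyme means were -5.46 and -5.68 in HG and -4.76 and -4.77 in the eyelid, with at most 1 array of a group above background.

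**Figure D4:**
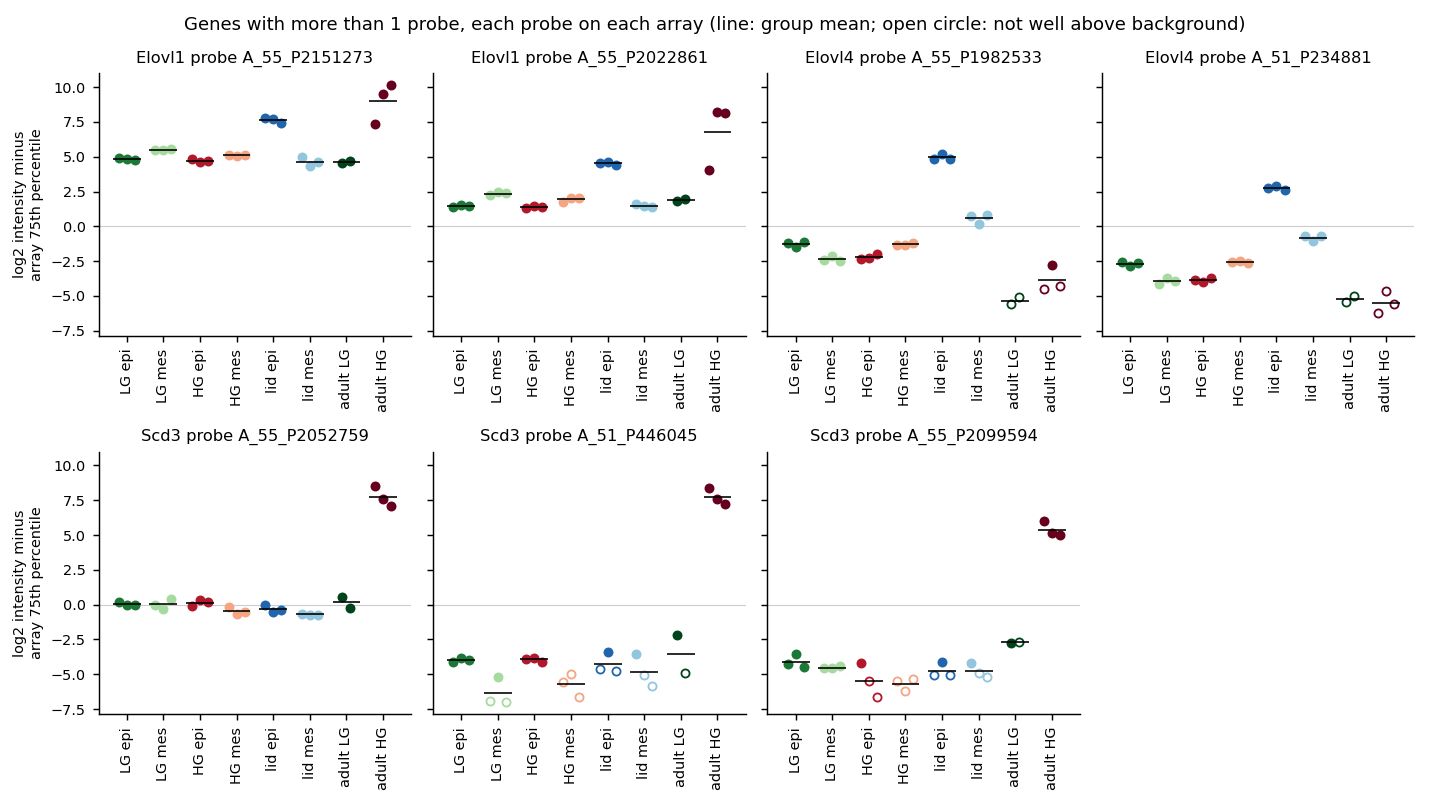
Log2 intensity minus the array's 75th percentile (vertical axis) for every probe of Elovl1, Elovl4 and Scd3 in the 8 groups, with 1 point an array, open where not well above background. The Scd3 probes all stand out in the adult HG but have different floors in the other groups, and on both Elovl1 probes adult HG replicate 1 is the lowest adult HG array.

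Other genes of fatty acid metabolism were read in 5 lists. The elongation partners, of which 6 of 7 were measured, are the reductases and dehydratases that finish each round of lengthening. Their counts are to be read against the genes called in all, which were 34.4% higher and 35.6% lower in adult HG against HG epithelium, 31.2% and 38.7% in adult LG against LG epithelium and 22.4% and 33.2% in adult LG against adult HG. In adult HG against HG epithelium 4 of the 6 rose and 0 fell (median 1.82, against 0.06 over all genes), led by the ketoacyl reductase Hsd17b12 (log2 difference 4.89), the dehydratase Hacd2 (3.95) and the enoyl reductase Tecr (2.43). In adult LG against LG epithelium 1 rose and 4 fell (median -0.93, against -0.10), with Hacd2 at 2.47, Hacd1 at -1.75 and Hsd17b12 at -1.35. Between the adult glands 0 were higher and 5 lower in LG (median -2.12).

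Genes of de novo fatty acid synthesis, all 12 measured, rose in 10 and fell in 1 case in the adult HG (median 4.12, with 34.4% of all genes higher and 35.6% lower). Me1, which supplies NADPH, rose by 8.73, Mid1ip1, which activates acetyl-CoA carboxylase, by 6.76, and fatty acid synthase Fasn by 6.62. In the adult LG 6 rose and 5 fell (median 0.73, with 31.2% of all genes higher and 38.7% lower), with Me1 at 5.03, Thrsp at 3.48 and the carboxylase Acaca at -3.12. Between the adult glands 2 were higher and 9 lower in LG (median -4.87, with 22.4% of all genes higher and 33.2% lower), led by Fasn at -7.15 and Acaca at -6.69.

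The other desaturases and their electron donors, of which 10 of 11 were measured, moved both ways. In the adult HG 5 rose and 3 fell (median 0.72), a share called near the 70.0% of all genes. Fads6 rose by 4.96 and the electron donors Cyb5r3 and Cyb5a by 2.94 and 2.79, while Fads1 and Fads2, which desaturate polyunsaturated chains, had differences of -2.36 and -2.13 (these 2 were picked out after their values were seen). In the adult LG 1 rose and 6 fell (median -0.40, near the 69.8% of all genes called), with Fads1 at -3.96, Fads3 at -3.10 and Fads2 at -2.14. In eyelid epithelium against mesenchyme 2 were higher and 2 lower (25.7% and 25.5% over all genes), with Fads3 at -3.97, Fads1 at -1.79 and Degs1, the dihydroceramide desaturase, at 1.11.

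Of the 14 lipogenic regulators, all measured, 9 rose and 1 fell in the adult HG (median 1.26), a share called near the 70.0% of all genes though mostly in 1 direction, led by the nuclear receptors Pparg (8.41), Ppara (6.03) and Nr1h3 (5.85). In the adult LG 8 rose and 2 fell (median 0.69, with 31.2% of all genes higher and 38.7% lower), led by Rxra (3.53), Insig2 (3.08) and Ppara (2.70). Pparg was lower in the adult LG than in the adult HG by a difference of -7.25. LG mesenchyme had 5 of them higher than HG mesenchyme and 0 lower (median 0.41, against -0.03, with 6.46% of all genes higher and 7.85% lower), led by Pparg (1.70) and Nr1h3 (1.03), again beside the adipocyte, neuron and pigment cell lists that differed between these groups.

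Enzymes that use the finished acyl chains, of which 21 of 23 were measured, rose in 16 and fell in 2 cases in the adult HG (median 2.58, with 34.4% of all genes higher and 35.6% lower). Monoacylglycerol acyltransferase Mogat1 rose by 11.70 and ceramide synthase Cers4 by 8.05, and the acyl-CoA synthetase Acsl6 was at least 827-fold higher. In the adult LG 7 rose and 8 fell (median -0.36), a share called near the 69.8% of all genes. Ceramide synthase Cers3, known from epidermis, was at least 41.6-fold lower there than in LG epithelium, and Soat1 and Lpin1 rose by 4.23 and 3.78. In eyelid epithelium 8 were higher and 5 lower than in mesenchyme (median 0.31, with 25.7% of all genes higher and 25.5% lower), led by Cers3 (4.34), Dgat2 (4.06) and Acsl1 (3.40).

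**Figure D5:**
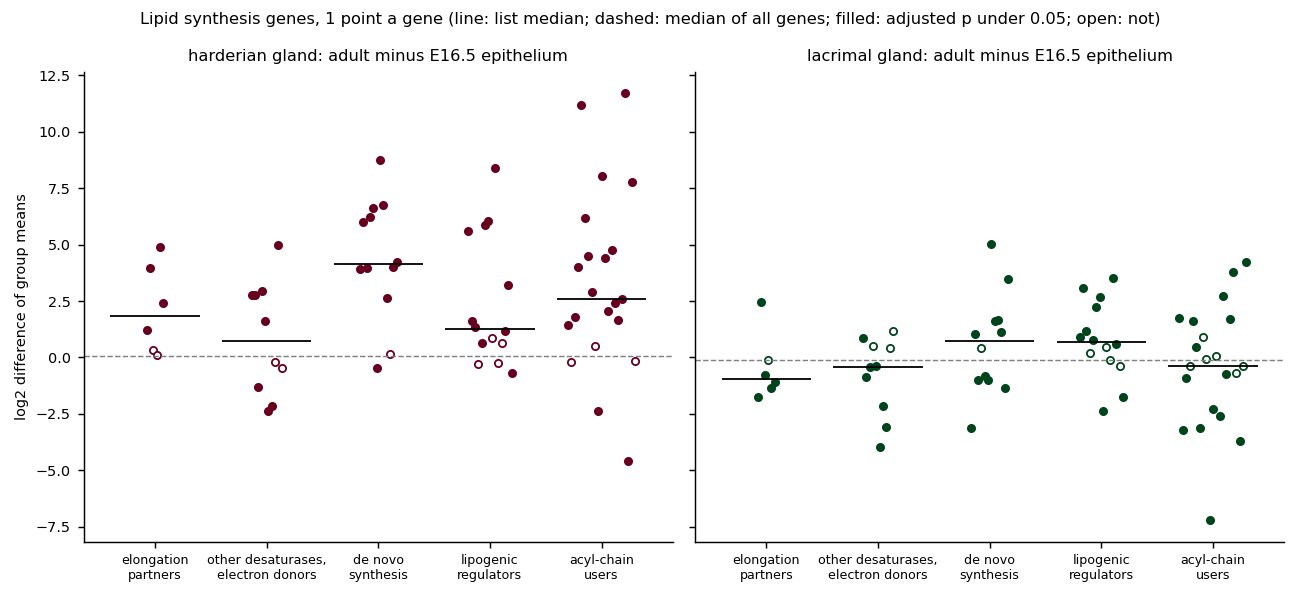
Log2 difference of group means (vertical axis) for each measured gene of the 5 lists, in adult HG minus HG epithelium and adult LG minus LG epithelium, with 1 point a gene, filled where the adjusted p was under 0.05, a line at each list's median and a dashed line at the median of all genes. The de novo synthesis genes centre on 4.12 in HG and 0.73 in LG, and the elongation partners on 1.82 in HG and -0.93 in LG.

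The genes with the most similar pattern were taken as those with the highest Pearson correlation of the 8 group means, which shows likeness of shape only and in which 1 outlying group can dominate. For Elovl5 these were Entpd5 (r 0.996), Npc2 (0.994) and Cers4 (0.993), for Elovl3 Plpp4 (0.992), Aadacl4fm1 (0.991) and Aadacl3 (0.990), for Elovl6 Piga (0.990), Klhl25 (0.990) and Sqle (0.984), and for Scd3 Tmem135, Npc1 and Rps6ka3 (each 0.994). Scd1 was closest to Cuta (0.987), Galc (0.985) and Zfp667 (0.983), and Scd2 to Vti1a (0.991), Med8 (0.982) and Usp40 (0.971). The adult HG was the highest group of all 6 of these members. For Elovl4 the closest were Gng13 (0.994), Anxa1 (0.966) and Fstl3 (0.962), for Elovl1 Pnpla1 (0.975), Gdpd3 (0.974) and Cryl1 (0.972), for Elovl7 Abhd17c (0.982), Trim9 (0.975) and Fam241a (0.974), and for Elovl2 Cgref1 (0.984), Matr3 (0.984) and Tceal8 (0.982).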

How the data were processed

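RNA of 23 samples was hybridised to 1-colour (Cy3) Agilent mouse arrays. Each deposited scanner file gives the linear intensity of every spot, from which the authors' scanner software had subtracted background. That software was Agilent Feature Extraction 11.5.1.1 per the submitters' processing notes, whereas slide 1 was read with another version per the file headers. No genome build was needed for the levels.

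Control and outlier spots were left out and spots of a probe averaged. The value was log2 of the processed signal minus the array's 75th percentile. Probes were named through RefSeq accessions (27509 of 55681 probes matched 20887 symbols). A probe was kept when at least 0.5 of its spots were well above background on all arrays of some group, and the brightest probe stood for its gene. All 23 arrays entered 1 fit with limma 3.58.1 (R 4.3.3), tested two-sided with Benjamini-Hochberg adjustment over 16324 genes at 0.05. Precision is limited by how few arrays a group has.

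Tested on simulated data for LG against HG epithelium (16324 genes), the fit recovered 50% of changes of 1 and 87% of changes of 2 on the log2 scale, with 6 false calls. The simulated noise was independent between arrays, with the same SD in every group for a gene. The real arrays had correlated residuals and unequal spread, so these figures may not hold for them. Residuals of arrays with the same replicate number correlated at 0.171 to 0.579 in 27 embryonic pairs. In 7 pairs with adult glands they correlated at -0.341 to 0.370. The number comes from the labels. For embryonic arrays it is also the slide, so a pairing of samples and a shared slide effect cannot be told apart. The members and lists were chosen with earlier results of these data known. Named were every member, up to 3 called genes of each list with the largest difference in a comparison, and the 3 genes most like each member. Alternatives were median and quantile scaling, normexp on median signals (chosen after seeing the data), the deposited series matrix, no filter on dim probes or one on 2 groups, each probe alone, the mean over probes, the groups compared alone, slide or replicate blocks and leaving out each array. For the members, the setting of each probe alone still read the brightest probe, so the differences were those reported and only the adjusted p could move. The deposited series matrix differed from the values used by an SD of at most 0.042 on the log2 scale. Both settings could hardly change a member's result, and both add to the counts of unchanged results. Unnamed probes were not analysed here.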

Additional observations from a re-analysis of the deposited data

Results flagged for a closer look

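By the moderated F test, the epithelium minus mesenchyme difference was not the same in LG, HG and eyelid for Elovl4 (70.4), Elovl2 (46.3), Elovl1 (23.7) and Scd1 (15.8). The LG-HG difference passed the test of a change from embryonic epithelium to adult gland in all 10 genes, but Elovl2 lost the call with median centring (adjusted p 0.163) and quantile normalization (0.656), and Elovl4 with normexp (-0.17, adjusted p 0.586). The change on the log2 scale was -12.09 for Elovl3, -9.58 for Elovl6, -9.50 for Elovl5, -7.46 for Scd3, -7.02 for Scd1, -4.48 for Elovl1, -2.43 for Elovl4 and -2.32 for Scd2. It was 3.77 for Elovl7 and 1.35 for Elovl2. Elovl2 was below background in both adult glands, Elovl4 on 4 of 5 adult arrays and Elovl3 in every group of this comparison except the adult HG, so those sizes depend on the scanner's floor. Elovl3 passed the filter on dim probes through the adult HG alone, so its call is not independent of the filter.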

How the results depend on the processing

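Apart from arrays left out, 149 counts of called members stayed within 1.5 times the count reported, 3 rose and 2 fell. With only the groups compared in the fit, the count was 6 in place of 3 for HG epithelium against mesenchyme and 2 in place of 1 for LG against HG epithelium, which the mean over probes also gave (2). With arrays centred on their median, it was 1 in place of 4 for LG against HG mesenchyme and 3 in place of 6 for LG against eyelid mesenchyme. With arrays left out, adult LG against LG epithelium gave 5 to 8. Counted by member, comparison and setting, 1472 cases kept the call or its absence, 27 gained the call and 26 lost it. The 1 case that reversed was Elovl4 between the adult glands (0.39 with normexp). With arrays left out, 964 cases kept the call or its absence, 2 gained the call and 24 lost it. A change of sign without a call in either fit was counted as unchanged. The cause was not tested. With the replicate block, Elovl2 in HG epithelium against mesenchyme (-0.45, adjusted p 0.0280), Scd3 in LG against eyelid mesenchyme (0.72, adjusted p 0.0411) and Elovl6 in the F test (5.11) gained the call, and this block changed no other call.

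Over all genes, median centring gave 630 calls in place of 1037 for LG against HG epithelium, 1230 in place of 2336 and 2774 in place of 5091 for LG against HG and eyelid mesenchyme, 2203 in place of 3653 for HG against eyelid mesenchyme and 3952 in place of 6907 for the F test. With only the groups compared, LG against HG mesenchyme had 4313 calls and the adult glands 4369 in place of 9081. Scaling moves the split between the adult glands: 3660 genes were higher and 5421 lower in LG, and the higher share was 27.9% with median centring and 51.8% with normexp (median over all genes -0.38 and 0.06, against -0.13). For adult LG against LG epithelium, 5090 were higher and 6311 lower, and the higher share was 31.9% with median centring. For the difference of differences, 2950 were positive and 4427 negative, and the positive share was 29.6% and 51.9%. Signal over background limits Elovl2 and Elovl4 in the adult glands, and Elovl3 in every group except the adult HG.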
